A study of Mus musculus with 20 samples.

Results

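Podoplanin (Pdpn), Cd44, Capg, Irx5 and Ptprz1 are 5 genes used as osteocyte markers of the cell surface, the cytoskeleton and the nucleus. Their members on the array were taken as all probe sets whose only gene symbol is one of the 5, which gave 11 of 45101 probe sets, for 5 of 18194 named genes. Of these, 10 passed the filter on low signals (a present call on at least 5 of 20 arrays) and were tested among 27141. The probe set 1443265_at of Cd44 was called absent on 20 of 20 arrays, where its signals ran from 1.9 to 85.4, and it is not used further in the comparisons.

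Osteocytes are osteoblasts that have been buried in the bone matrix and that keep contact with each other through long dendrites. Podoplanin, also called E11 or gp38, is a mucin-type membrane glycoprotein of the early embedding osteocyte, and dendrite elongation depends on it; it couples to the actin cytoskeleton through proteins of the ezrin family and can bind CD44. CD44 is the main receptor for hyaluronan and also binds osteopontin, CapG caps the barbed ends of actin filaments, PTPRZ1 is a receptor tyrosine phosphatase whose ligands are pleiotrophin and midkine, and IRX5 is a homeodomain transcription factor of the Iroquois family. CD44 and CapG are abundant in macrophages and osteoclasts too, and podoplanin in the endothelium of lymphatic vessels.

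RNA came from the femoral diaphysis of C57BL/6J mice at 5 weeks of age, from which marrow had been rinsed with saline as far as it would come out. The Hyp mutation deletes the 3′ part of Phex on the X chromosome and is the mouse model of X-linked hypophosphatemia, with renal phosphate loss and poor mineralization of bone. The 4 groups of 5 arrays were normal males (+/Y), hemizygous Hyp males (Hyp/Y), normal females (+/+) and heterozygous Hyp females (Hyp/+), the last of which keep 1 normal allele. Each array held pooled RNA of 2 mice, and each of 5 series held littermates of all 4 groups that were handled in parallel, so that the design has 10 same-series pairs, 5 per sex. Phex, the mutated gene, had signals of 2391 to 4003 in normal males, 3.8 to 48.2 in Hyp males, 3388 to 5764 in normal females and 357 to 847 in Hyp females. The groups did not overlap within a sex, which goes with the labelled genotypes. The Hyp females' mean of 725 beside 4419.6 in normal females was lower than the level midway between normal females and 0, and whether the probes lie in the deleted stretch was not looked up here. Signals are the scanner software's (GCOS) linear values. Computed from them, with 2% trimmed at each end, the mean of each array was 500.0. Of all probe sets, 49.3% to 56.9% were called present on an array. The 5 markers' brightest probe sets were called present on 20 of 20 arrays each.

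Podoplanin was the 1 marker that was called lower in Hyp femora. Over both sexes its log2 change was -0.64 ± 0.12 (SE, 10 pairs; 95% interval -0.89 to -0.40), a signal at 0.641 of normal, with a limma adjusted p of 0.013 over all 27141 probe sets. The other 4 markers had lower mean signals in both Hyp groups than in the normal groups of the same sex, with log2 changes of -0.20 to -0.43 for their brightest probe sets, and none of these passed the test. Whether podoplanin's change differed from theirs was not tested. Over the whole array 1.3% of probe sets were called lower in Hyp over both sexes, and among the 10 tested for the markers 1 was.

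Podoplanin is read by the single probe set 1419309_at. In series order, normal males gave signals of 2369, 2615, 1836, 2246 and 2404. Hyp males gave 1118, 986, 1666, 1292 and 1243. Every Hyp male lay below every normal male, and the array closest to the normal range was that of series 3. Such a separation was found in males for 0.951% of all tested probe sets and for 1 of the 10 of the markers, and in females for 1.14% and 0. Normal females gave 1666, 2404, 2294, 2355 and 2271, and Hyp females gave 1706, 1953, 1457, 1231 and 1919.7. The female groups overlapped, because the normal female of series 1 stood below 3 of the 5 Hyp females, while the other 4 normal females lay above all Hyp females. The means were 2294 ± 289 (SD, n = 5) in normal males, 1261 ± 256 (SD, n = 5) in Hyp males, 2198 ± 302 (SD, n = 5) in normal females and 1654 ± 308 (SD, n = 5) in Hyp females. In bulk tissue, fewer cells that express a gene and less of its RNA per cell cannot be told apart, and this holds for each value given here.

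Within males alone the podoplanin change was -0.87 ± 0.16 on the log2 scale (5 pairs, all lower), with a limma adjusted p of 0.0506, just short of the threshold of 0.05. Here and for the other fitted changes, ± is the SE from a spread that all groups in the fit share. It is not the spread of the pairs named, and the 5 male podoplanin differences had an SD of 0.46. In males 0.0442% of all probe sets were called lower and 0 of the 10 of the markers, with limma; at an unadjusted p under 0.05 these were 7.65% and 1, podoplanin. In females the change was -0.42 ± 0.16 (4 of 5 pairs lower), with a limma adjusted p of 0.404. In females limma called 0.00368% of all probe sets lower and 0 of the 10, against 5.31% and 6 at an unadjusted p under 0.05. The difference of the podoplanin change between the sexes, females minus males, was 0.45 ± 0.23 on the log2 scale (95% interval -0.04 to 0.94), with an unadjusted p of 0.0691 and a limma adjusted p of 0.756. A difference between hemizygous and heterozygous animals thus did not pass the test, and the interval leaves room for 0 and for a change in females that is smaller by 0.94. The within-series differences of podoplanin were -1.07, -1.39, -0.14, -0.79 and -0.94 in the male pairs of series 1 to 5. In the female pairs they were 0.03, -0.30, -0.65, -0.93 and -0.24. The smallest male difference, in series 3, was thus smaller than 4 of the 5 female ones. The podoplanin call over both sexes was lost when all 4 arrays of series 2, 4 or 5 were left out (adjusted p of 0.085, 0.0984 and 0.0582 with limma), while the log2 change stayed between -0.71 and -0.58 over all 25 fits that left out an array or a series.

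**Figure D1:**
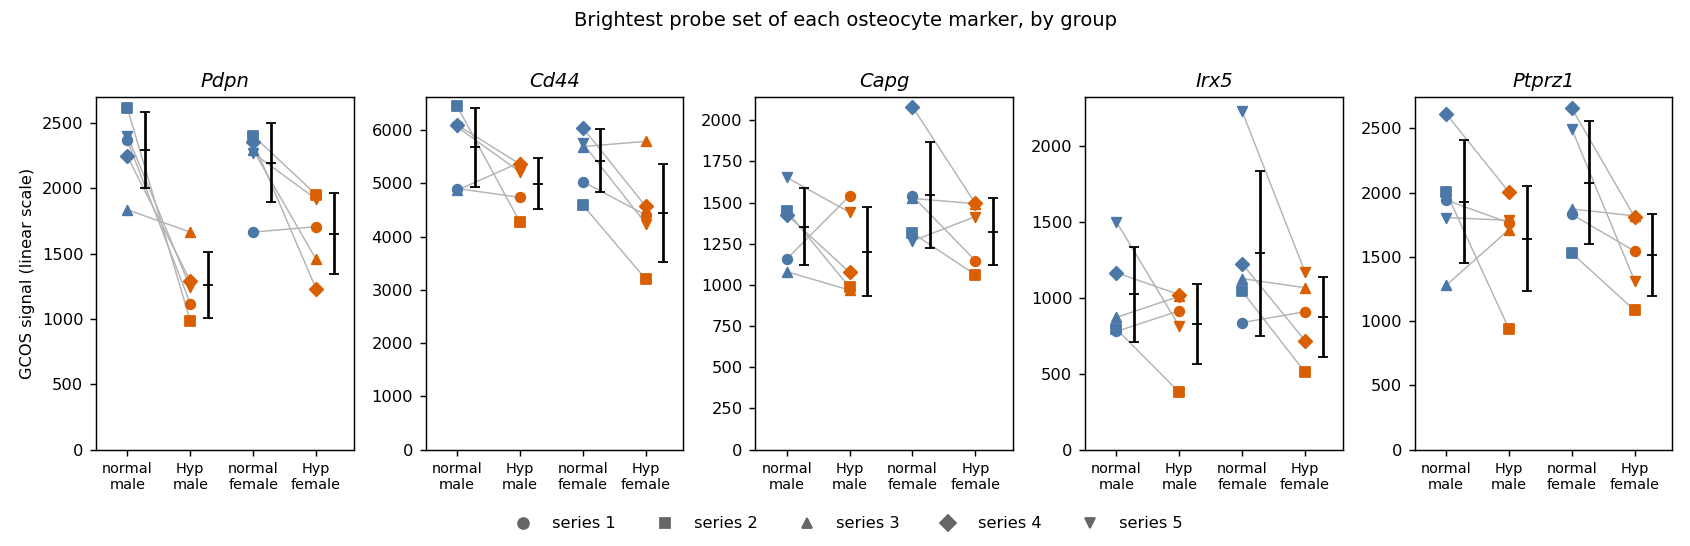
GCOS signal (linear scale, y axis from 0) of the brightest probe set of each of the 5 markers in the 4 groups. Each point is an array, with a shape per series; grey lines join the normal and Hyp array of one series and sex, and black bars beside the points give the mean and SD (n = 5). Podoplanin signals of the 5 Hyp males (986 to 1666) lie below those of the 5 normal males (1836 to 2615), and the other groups shown overlap within each sex.

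CD44 was read by 3 tested probe sets, and none was called. For the brightest, 1434376_at, normal males gave signals of 4903, 6452, 4869.5, 6099 and 6061 in series order, and Hyp males 4736, 4270.1, 5393, 5362 and 5215. Normal females gave 5031, 4592, 5691, 6045 and 5753, and Hyp females 4405, 3201, 5789, 4568 and 4243. The groups overlapped in both sexes, and the Hyp array was the lower one in 8 of 10 pairs, with series 3 as the exception in each sex. At least 8 pairs were lower for 7 of the 10 probe sets of the markers and for 11.4% of all. The change over both sexes was -0.24 ± 0.09 on the log2 scale (95% interval -0.44 to -0.05), with a limma adjusted p of 0.149. The difference was -0.18 ± 0.13 in males and -0.31 ± 0.13 in females.

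The probe set 1452483_a_at of Cd44, of a type that can read several transcripts of one gene, gave its larger difference in females. Normal females had signals of 814, 1052, 1522, 1852 and 1246, and Hyp females 781, 588, 1042, 1024 and 871, so the Hyp array was lower in 5 of 5 pairs although the groups overlapped. Normal males had 799, 1343, 981, 1447 and 1279, and Hyp males 1021, 658, 1125, 1178 and 1103, lower in 3 of 5 pairs. The log2 changes were -0.55 ± 0.17 in females (limma adjusted p of 0.273) and -0.20 ± 0.17 in males (0.575). Their difference, -0.36 ± 0.24, had an adjusted p of 0.808 with limma, so the sexes were not shown to differ. Over both sexes the change was -0.37 ± 0.12 with an adjusted p of 0.103, which passed the threshold in 1 of 25 fits that left out arrays (0.0494 without the normal male of series 3). The third, 1423760_at, changed by -0.19 ± 0.10 over both sexes (adjusted p of 0.307) and was lower in Hyp in 7 of 10 pairs. CD44 is alternatively spliced, and which transcripts each probe set reads was not looked up here.

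PTPRZ1 was likewise read by 3 tested probe sets. For the brightest, 1452284_at, normal males gave 1942, 2004, 1277, 2614 and 1805 in series order, and Hyp males 1765, 939, 1711, 2004 and 1784. Normal females gave 1829.9, 1529, 1872, 2654 and 2493, and Hyp females 1543, 1082, 1818, 1808 and 1311. The Hyp array was lower in 9 of 10 pairs, with the male pair of series 3 as the exception, yet in neither sex were the groups apart. The log2 change over both sexes was -0.34 ± 0.12 (95% interval -0.60 to -0.08), with a limma adjusted p of 0.13. It was -0.24 ± 0.17 in males and -0.45 ± 0.17 in females, where 5 of 5 pairs were lower. Leaving out series 3 brought the change over both sexes to -0.48 and its adjusted p to 0.0483, and leaving out the normal male of that series alone gave -0.43 and 0.0363. The normal male of series 3 was the lowest of its group for this probe set, and 23 of the 25 fits that left out arrays did not call it.

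The probe set 1427019_at of Ptprz1 changed by -0.21 ± 0.13 over both sexes (adjusted p of 0.405, 8 of 10 pairs lower). Its log2 difference was -0.33 ± 0.19 in males and -0.09 ± 0.19 in females. The difference between the sexes, 0.24 ± 0.27, had an adjusted p of 0.884 with limma, and it was 1.03 in series 1 and 2 alone and -0.29 in series 3 to 5 alone. Without the Hyp male of series 2 the change of 1427019_at was -0.12 over both sexes and -0.15 in males. The dim probe set 1418690_at had present calls on 3 of 5 normal male, 1 of 5 Hyp male, 3 of 5 normal female and 2 of 5 Hyp female arrays, and its signals ran from 6.5 to 85.8. Its change over both sexes was -0.02 ± 0.18, and its female value, 0.25 ± 0.26, was the 1 positive value among the 10 probe sets in either sex.

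CapG was read by 2 tested probe sets. For the brighter, 1450355_a_at, normal males gave 1157, 1451, 1081, 1428 and 1653 in series order, and Hyp males 1541, 985, 969, 1077 and 1441. Normal females gave 1540.3, 1315, 1526, 2082 and 1267, and Hyp females 1147, 1062, 1494, 1495 and 1415. The groups overlapped broadly, and the Hyp array was lower in 8 of 10 pairs. The log2 change was -0.20 ± 0.12 over both sexes, with a limma adjusted p of 0.366, and it was nearly alike in males (-0.18 ± 0.17) and females (-0.21 ± 0.17).

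The dimmer probe set of Capg, 1447803_x_at, had present calls on 15 of 20 arrays. Normal males gave signals of 224, 161, 247, 171 and 205, Hyp males 142, 161, 218, 152 and 187, normal females 189, 159, 162, 199 and 169, and Hyp females 162, 125, 128, 102 and 139. It was the 1 probe set of the markers that was lower in Hyp in 10 of 10 pairs, which 1.04% of all tested probe sets were, although in series 2 the male pair differed by less than 0.01 on the log2 scale. The change of -0.30 ± 0.09 had a limma adjusted p of 0.0896 and was called in 0 of 25 fits that left out arrays. Its suffix marks probe sets whose probes may also bind transcripts of other genes, so its identity is less certain than that of the brighter one.

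Irx5, read by 1421072_at, had the largest standard error among the 5 markers' brightest probe sets. Normal males gave signals of 778, 794, 870.3, 1166 and 1502 in series order, and Hyp males 914, 377, 1009.8, 1020.2 and 813. Normal females gave 836, 1043, 1127, 1225 and 2228, and Hyp females 908, 509, 1066, 717 and 1169.5. The normal arrays of series 5 were the highest of their groups, the Hyp arrays of series 2 the lowest of theirs, and the groups overlapped in both sexes. The within-series differences were 0.23, -1.04, 0.21, -0.19 and -0.87 in males and 0.12, -1.01, -0.08, -0.76 and -0.92 in females, so series 2 and 5 had the lowest values in both sexes and series 1 had positive values in both. The log2 change over both sexes was -0.43 ± 0.15 (95% interval -0.76 to -0.11; 7 of 10 pairs lower), with a limma adjusted p of 0.128. It was -0.33 ± 0.22 in males and -0.53 ± 0.22 in females.

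**Figure D2:**
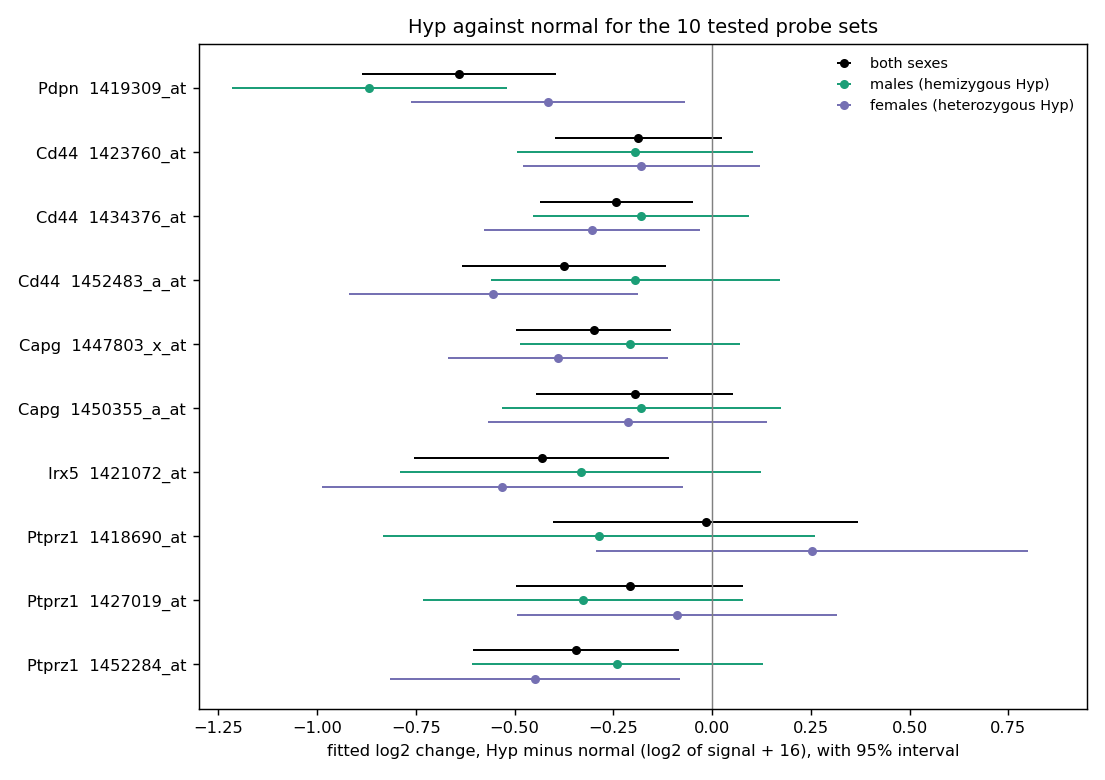
Fitted log2 change of Hyp against normal, on log2 of signal plus 16, for the 10 tested probe sets, with 95% intervals, over both sexes (black), in males (green) and in females (violet). The interval of podoplanin over both sexes runs from -0.89 to -0.40, and all 10 values over both sexes lie below 0; the intervals of the sexes overlap for every probe set.

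Over the 5 markers, each represented by its brightest probe set, the median log2 change was -0.34 over both sexes, -0.24 in males and -0.42 in females, beside medians of 0.01, 0.01 and 0.02 over all probe sets tested. Of the 10 tested probe sets 10 had a negative value over both sexes, 10 in males and 9 in females, where 47.6%, 48.4% and 46.6% of all probe sets had one. At an unadjusted p under 0.05, 6 of the 10 were lower over both sexes (podoplanin, 1434376_at and 1452483_a_at of Cd44, 1447803_x_at of Capg, Irx5, and 1452284_at of Ptprz1), beside 8.73% of all. Probe sets of one gene were measured on the same arrays and may read the same transcripts, so the 10 are not independent. The test of a difference between the sexes called 0 of the 10 with limma, and 0 of them had an unadjusted p under 0.05, beside 0.00368% and 6.62% of all probe sets. Between normal females and normal males 0 of the 10 were called with limma and 0 had an unadjusted p under 0.05, beside 0.0774% and 3.85% of all.

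The authors' deposited table gives, per probe set, the mean of the 10 Hyp arrays divided by that of the 10 normal arrays, and the F statistic of genotype from an analysis of variance on the linear signals. In the authors' deposited table podoplanin had a ratio of 0.649 and an F of 33.4. The next largest F values in the authors' deposited table were 10.1 for 1447803_x_at of Capg (ratio 0.804), 9.39 for 1452483_a_at of Cd44 (ratio 0.761), 8.64 for 1452284_at of Ptprz1 (ratio 0.787), 7.84 for 1434376_at of Cd44 (ratio 0.850) and 6.25 for Irx5 (ratio 0.735). That analysis of variance, recomputed and read at an unadjusted p under 0.05, found 6 of the 10 lower in Hyp beside 9.11% of all tested probe sets. For sex, over both genotypes, the deposited analysis of variance gave 1447803_x_at of Capg an F of 8.28 (p under 0.025). It marked the other probe sets of the markers as not significant for sex.

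The pairs differed between series. In series 2 and 4 the Hyp array was lower for 5 of 5 brightest probe sets in both sexes. In series 5 it was lower for 5 of 5 in the male pair and 4 of 5 in the female pair. In series 1 it was lower for 3 of 5 in each sex, and in series 3 for 2 of 5 in males and 4 of 5 in females. The median log2 difference over the 5 markers was lowest in the male pair of series 2, at -1.04, and highest in the male pair of series 3, at 0.15, while the median over all tested probe sets lay between -0.02 and 0.04 in all 10 pairs.

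**Figure D3:**
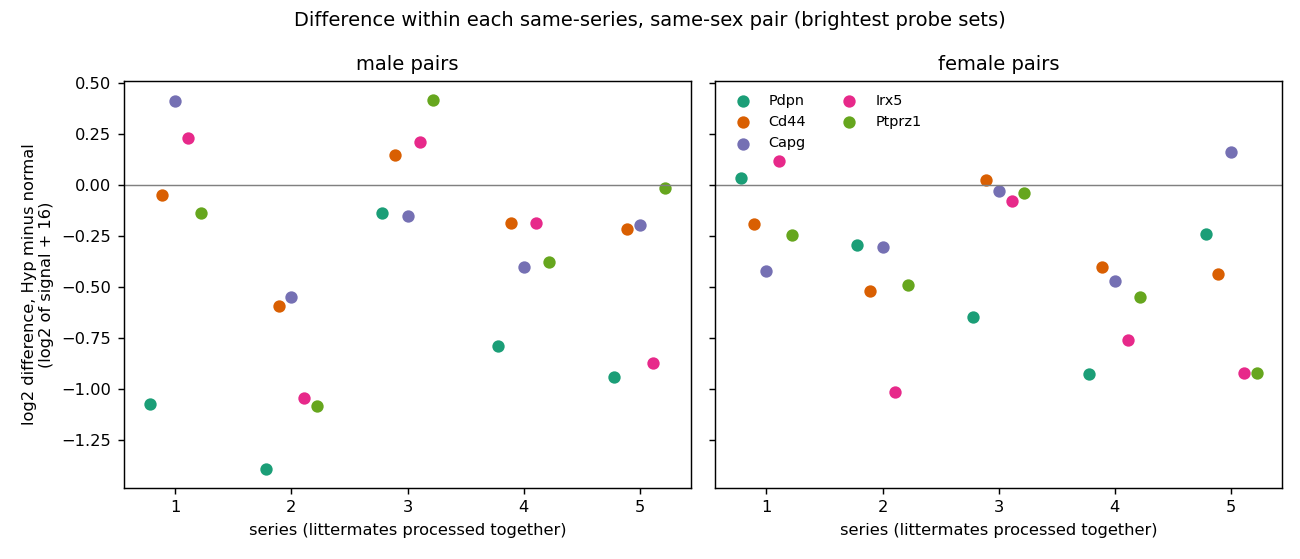
Log2 difference of the Hyp minus the normal array (log2 of signal plus 16) in each of the 5 male and 5 female pairs, by series, with a colour per marker (brightest probe set). The 5 markers lie below 0 together in series 2 and 4 in both sexes; podoplanin stands lowest in the male pairs of series 1, 2, 4 and 5.

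The Hyp male array of series 2 stood apart from the other 4 Hyp male arrays. Of the 10 tested probe sets 8 had their lowest Hyp male signal there, beside 23.9% of all probe sets. On it the summed signal of 9 osteocyte genes was 43471, beside 56750 to 65843 on the other 4 Hyp male arrays. The summed signal of 6 osteoblast genes was 128020 there, beside 145473 to 176580, and that of 7 osteoclast genes 31862, beside 47066 to 54000. In the other direction, the sum of 5 skeletal muscle genes was 248382 beside 185780 to 216323, that of 7 neutrophil genes 115614 beside 76113 to 105403, and that of 3 adipocyte genes 31540 beside 16698 to 20276. Against the range of the normal males, its osteoblast and muscle sums lay within, and its osteocyte, osteoclast, neutrophil and adipocyte sums outside. The part of these sums in the marker values was not tested. Without this array the podoplanin change over both sexes was -0.58, with a limma adjusted p of 0.0243, and in males -0.74, with an adjusted p of 0.123. In males the other brightest probe sets were then at -0.16 (Cd44), -0.15 (Capg), -0.18 (Irx5) and -0.12 (Ptprz1), with adjusted p of 0.613 to 0.791 in limma. Irx5 and Ptprz1 in males had been at -0.33 and -0.24 with it. For the other 2 a different array mattered more: in males the change of 1434376_at of Cd44 was -0.06 without the normal male of series 2, against -0.18 with all arrays, and that of 1450355_a_at of Capg was -0.09 without either the Hyp male of series 4 or the normal male of series 2, against -0.18.

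The lists of macrophage and osteoclast genes, whose cells carry Cd44 and Capg, held no called gene. Among 7 genes of monocytes and macrophages limma called 0, the median log2 change over both sexes was 0.07, and the summed signals were 20962 to 33248 in normal males, 26539 to 28422 in Hyp males, 21700 to 28186 in normal females and 17452 to 27910 in Hyp females. Among 7 osteoclast genes limma called 0 as well, but 6 had a negative value and the median was -0.29. Their sums were 40256 to 63278 in normal males, 31862 to 54000 in Hyp males, 52908 to 66583 in normal females and 42300 to 61040 in Hyp females, lower in Hyp in 8 of 10 pairs. Of podoplanin's other sources, lymphatic endothelium had 2 of 4 listed genes measured with 0 called, and Prox1, which defines it, was below the filter. In males, where podoplanin was at -0.87, Lyve1 was at -1.02 (limma adjusted p of 0.0937) and Flt4 at 0.29 (0.208); in females they were at 0.01 each. Endothelial genes had 3 of 6 called higher, with a median of 0.44. Of 4 erythroid genes limma called 0, with a median log2 change of 0.49 over both sexes, 0.90 in males and 0.16 in females. Their sums were 8336 to 22809 in normal males, 22311 to 39877 in Hyp males, 9479 to 16397 in normal females and 10785 to 17156 in Hyp females. Of 3 nerve and Schwann cell genes limma called 0, with a median of 0.42, and their sum was higher in Hyp in 10 of 10 pairs, by a mean of 0.35 on the log2 scale. Osteoblast genes had 1 of 6 measured called lower, Ifitm5, at -0.87 ± 0.14 (limma adjusted p of 0.00903), and their median was -0.10. Among them 4 had a negative value, while Col1a1 was at 0.15 ± 0.09 and Col1a2 at 0.13 ± 0.09. The part of these lists in the marker values was not tested.

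The ratio of the 3′ to the 5′ probe set of beta-actin, a measure of RNA integrity and labelling, ran from 1.45 to 1.72 in normal males, 1.67 to 1.88 in Hyp males, 1.42 to 1.58 in normal females and 1.55 to 1.68 in Hyp females. It was higher in Hyp in 9 of 10 pairs, by 0.14 ± 0.09 (SD, 10 pairs) on the log2 scale, with p = 0.00391 in an exact 2-sided sign-flip test. The ratio for Gapdh was higher in Hyp in 8 of 10 pairs, by 0.06 ± 0.17 (SD, 10 pairs) on the log2 scale. For Gapdh the exact 2-sided sign-flip test over 10 pairs gave p = 0.258, so a difference was not shown by that ratio. With the actin ratio as a covariate podoplanin stood at -0.69, with an adjusted p of 0.232 in limma. Standard errors were larger in that fit (a median ratio of 1.76 over all probe sets). The 3 probe sets of Cd44 were then nearer to 0, at -0.15 (1434376_at), -0.01 (1423760_at) and -0.26 (1452483_a_at), as was 1447803_x_at of Capg, at -0.17. The brighter probe set of Capg stood at -0.21 and Irx5 at -0.43, both within 0.02 of their values without the covariate. Those of Ptprz1 were farther from 0, at -0.42 (1452284_at), -0.28 (1427019_at) and -0.21 (1418690_at).

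Of 9 other osteocyte genes, all measured, 4 were called lower over both sexes, none was called higher, and the median log2 change was -0.75. This count and this median include Phex, the mutated gene itself, whose fall was given by the genotypes that define the groups. Phex changed by -4.45 ± 0.16 (adjusted p of 3.03e-10). Sost, which encodes the Wnt inhibitor sclerostin of mature osteocytes, fell by 1.31 ± 0.18 on the log2 scale (adjusted p of 0.0031), Dkk1, another secreted Wnt inhibitor, fell by 1.27 ± 0.18 (0.00448), and Dmp1, a matrix protein of osteocytes needed for mineralization, fell by 0.79 ± 0.15 (0.0156), each lower in 10 of 10 pairs, with limma. Mepe, another matrix protein, was at -0.75 ± 0.20 with an adjusted p of 0.0561. Gja1, which encodes the gap junction protein connexin 43 of osteocyte dendrites, was at 0.05 ± 0.08, Dstn, for the actin-severing protein destrin, at -0.02 ± 0.07, Hyou1 at -0.23 ± 0.13, and Fgf23 at -0.09 ± 0.14. Sost and Fgf23 were dim. Sost was called present on 12 of 20 arrays, with mean signals of 340 in normal males, 346 in normal females, 130 in Hyp males and 129 in Hyp females. Fgf23 was called present on 17 of 20 arrays, with group means of 127.0 to 144.3.

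Genes whose products bind podoplanin or CD44 did not pass the test in either direction, with 0 of 8 called by limma and a median of -0.02. Of the linkers to actin, Ezr (ezrin) was at 0.26 ± 0.13 with an adjusted p of 0.262, Msn (moesin) at -0.04 ± 0.07 and Rdx (radixin) at 0.01 ± 0.09. Mmp14, the membrane protease that cleaves CD44, was at -0.12 ± 0.12, Rhoa at -0.08 ± 0.08 and Cd9 at -0.14 ± 0.08. Clec1b, which encodes the platelet receptor for podoplanin, was at 0.64 ± 0.24 with an adjusted p of 0.154 in limma, higher in Hyp in 7 of 10 pairs.

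Of the hyaluronan genes and CD44 ligands 9 of 13 were measured, and 2 were called higher. Stab1 and Stab2, which encode the scavenger receptors stabilin-1 and stabilin-2 of sinusoidal endothelium, rose by 0.39 ± 0.09 (adjusted p of 0.0445) and 0.59 ± 0.14 (0.0426) on the log2 scale with limma. Their rise stands beside that of the endothelial genes above. Cemip, a protein needed for hyaluronan breakdown, was at -0.53 ± 0.15 with an adjusted p of 0.0737 (lower in 9 of 10 pairs), Has2, for a hyaluronan synthase, at 0.16 ± 0.20, and Lyve1, a hyaluronan receptor of lymphatic vessels, at -0.51 ± 0.19 with an adjusted p of 0.144. Vcan, the brightest of the measured genes on this list, was at -0.01 ± 0.11. The median over the 9 was 0.04.

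Of the gelsolin family and other proteins of actin filament ends 11 of 13 were measured. Cfl1, which encodes the actin-severing protein cofilin-1, rose by 0.28 ± 0.06 on the log2 scale (limma adjusted p of 0.0312, higher in 10 of 10 pairs). The other 10 were not called. Gsn, for gelsolin, was at -0.18 ± 0.06 with an adjusted p of 0.125 (lower in 9 of 10 pairs), Capza2, for a subunit of capping protein, at -0.08 ± 0.06, Capzb, for another, at 0.02 ± 0.07, and Pfn1, for the actin monomer binder profilin-1, at -0.01 ± 0.11. The median was -0.02.

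Among 6 other Iroquois and Mohawk homeobox genes 2 were measured, and limma called 0. Mkx, for the tendon transcription factor Mohawk, was at -0.36 ± 0.095 with an adjusted p of 0.058 (lower in 9 of 10 pairs), and Irx3 at -0.16 ± 0.09 with 0.361. Among ligands and relatives of PTPRZ1 limma called 0 of 10, with a median of 0.03. Its ligands pleiotrophin and midkine were at 0.14 ± 0.14 (Ptn) and -0.01 ± 0.11 (Mdk), the matrix protein tenascin-C at 0.13 ± 0.12 (Tnc), and the related phosphatase Ptprg at -0.02 ± 0.10.

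**Figure D4:**
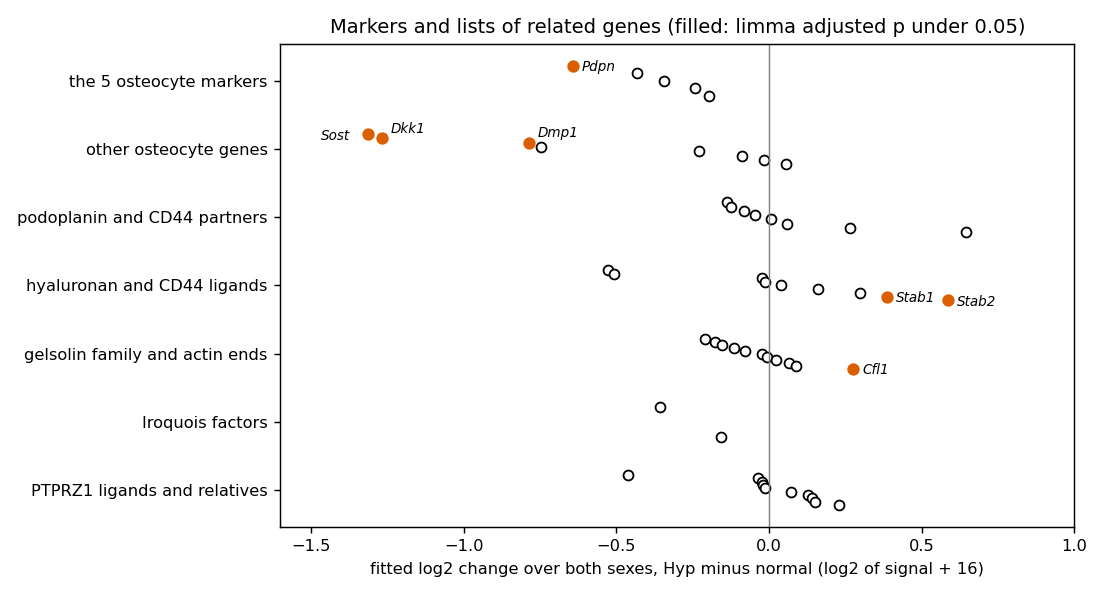
Fitted log2 change over both sexes (Hyp minus normal, log2 of signal plus 16) of the 5 markers and of 6 lists of related genes, 1 point per gene (brightest probe set), filled and named where the limma adjusted p is under 0.05. Podoplanin is the 1 filled point among the 5 markers; Phex, at -4.45, is left off the scale.

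As a description of how the markers varied over the 20 arrays, each signal was set against that of the other genes after the mean of each series was subtracted. Between the markers, Pearson's r ran from 0.316 (Capg and Irx5) to 0.824 (Cd44 and Ptprz1), with 0.733 for Irx5 and Ptprz1 and 0.678 for Pdpn and Irx5. The arrays share their groups and the Hyp male array of series 2, and no test was made. The genes most like podoplanin among 12430 were Rnf150 (r = 0.933), Cope (r = 0.917) and Cd302 (r = 0.909), of which Rnf150 fell by 0.53 ± 0.08 (limma adjusted p of 0.0083) and Cope by 0.26 ± 0.06 (0.0449) in Hyp. With the group means also removed, these r were 0.808, 0.746 and 0.895. For Irx5 they were Plod2 (r = 0.944), which encodes a lysyl hydroxylase of collagen, Slc36a2 (r = 0.942) and Slc13a5 (r = 0.927), a citrate transporter, which fell by 0.77 ± 0.17 in Hyp (limma adjusted p of 0.0272). For Capg they were Egr3 (r = 0.851), Slc37a2 (r = 0.847) and Atp6v0d2 (r = 0.821), the last a proton pump subunit on the osteoclast list. For Ptprz1 they were Tmem214 (r = 0.930), 2310022B05Rik (r = 0.920) and Lhfp (r = 0.907), and for Cd44 they were Tcfl5 (r = 0.869), Os9 (r = 0.864) and Septin9 (r = 0.854).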

How the data were processed

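Per the labels' protocols, 20 independent RNA pools were labelled from 8 µg of RNA each. The authors deposited signal intensities on a linear scale, made with GCOS per the file headers and the submitters' processing notes, which give no version; other steps are not given in the sources used here. The authors also deposited a ratio of means and, as a score, the F statistics of their analysis of variance, which recomputed to within a relative 2.09e-09. To each signal 16 was added as a pseudocount before log2 was taken, and the arrays were not normalized again. The 64 control probe sets and those present on fewer than 5 arrays were left out. A limma 3.58.1 model (R 4.3.3) held 4 groups and 5 series as a block, with Benjamini-Hochberg adjustment over 27141 probe sets at 0.05. The model was also run on simulated data with independent noise and no series or RNA quality effects. That run does not show the error rates in these data. The labels state that littermates and processing match within a series; same-series deviations correlated at a median of 0.215 over 30 pairs of arrays, against -0.07 for other pairs. Array number limits precision: the median SE was 0.12 over both sexes and 0.16 within one. The gene's brightest tested probe set represented it, and for each marker the 3 most alike genes were named. Symbols came from the platform annotation, and no genome was used. List genes without a measured probe set are not analysed here. Of the uncalled list genes only some are named, and the counts and medians cover all measured ones. The 5 genes, the lists and the tests were chosen with earlier results of these data known.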

Additional observations from a re-analysis of the deposited data

Results flagged for a closer look

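For 44 groups of 5 arrays (11 probe sets in 4 groups), a highest or lowest array far from the rest was looked for. Dixon's ratio with a critical value of 0.71 was used, on log2 of the signal plus the pseudocount. On that scale 5 were found, and chance flags about 1 in 20 groups. The signals given below are linear values, on which the ratio was not taken and the flags may differ. Of the 5, 3 are from the Hyp male of series 2, the lowest of its group at 657.7 for 1452483_a_at of Cd44, 377.0 for Irx5 and 938.9 for 1452284_at of Ptprz1. The normal female of series 1 was the lowest of its group for podoplanin, at 1665.5. The normal male of series 1 was the highest of its group at 85.4 for 1443265_at of Cd44, which was called absent on that array. No cause was tested for any of them.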

How the results depend on the processing

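The decrease of podoplanin over both sexes kept its direction under all 36 alternatives (log2 -0.71 to -0.58) and its call under 30, with adjusted p from 0.00426 to 0.232. Besides the 3 series left out above, the call was lost with the actin ratio as a covariate, and in series 1 and 2 alone (-0.68, adjusted p of 0.215) and series 3 to 5 alone (-0.61, 0.216), fits with fewer arrays. In males podoplanin was called with a pseudocount of 64, presence on 10 arrays, quantile normalization, a random replicate block or the linear analysis of variance (1 probe set each, adjusted p from 0.0237 to 0.0499). These were 5 of 11 such settings, over which its adjusted p in males reached 0.534. Fits that left out arrays or series called it in males in 2 of 25 cases. In females its change was -0.13 in series 1 and 2 and -0.61 in series 3 to 5. Of 1795 values for single probe sets of the markers, 1708 kept direction and call and 0 called values changed sign. Another 71 changed sign but were called in neither fit. Podoplanin over both sexes was the 1 value called in the main fit, so most of the values that kept their call were uncalled in both.

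Counts over all probe sets moved more. Over both sexes 647 were called, against 148 without the detection filter, 317 with no replicate block, 1 with the actin covariate, 0 in series 1 and 2 alone and 1 in series 3 to 5 alone. Of the markers' probe sets, these last 3 settings called 0. In males 27 were called, against 129 with a pseudocount of 64, 4 without the filter, 75 with presence on 10 arrays, 52 with quantile normalization, 2 with no replicate block, 97 with a random replicate block, 2 with the actin covariate, 151 in the analysis of variance, 0 in series 1 and 2 and 1 in series 3 to 5. In females 1 was called, against 0 with a pseudocount of 1 and in series 1 and 2, 6 with a pseudocount of 64, 4 with presence on 10 arrays, and 2 with quantile normalization or the analysis of variance. For the difference between the sexes 1 was called, against 0 in the analysis of variance and in series 1 and 2, and between normal sexes 21, against 8 in series 1 and 2. Leaving out arrays or series gave 20 to 1343 over both sexes, 1 to 312 in males, 1 to 22 in females, 1 to 2 for the difference and 14 to 20 between normal sexes. Among the markers' probe sets it gave 0 to 3 over both sexes, 0 to 1 in males and 0 in the other 3 comparisons. The cause was not tested.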
